A study of Mus musculus with 21 samples.

Results

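The 10 genes described here encode the 5 subunits of the transcription factor NF-kB (Nfkb1, Nfkb2, Rel, Rela and Relb), 2 of its feedback inhibitors (Nfkbia and Tnfaip3) and 3 receptors that lead to it (Il1r1, Tlr4 and Tnfrsf1b). They were taken by symbol from the 21000 gene symbols of the count table, and all 10 were found. RNA sequencing was performed on hematopoietic stem cells (HSCs), sorted from mouse bone marrow as Lineage-negative c-Kit+ Sca-1+ cells that were CD48- and CD150+, in 21 libraries of 3000 to 3500 cells each. There were 7 groups with 3 libraries from independent experiments in each. Wild-type C57BL/6 mice of both sexes that were 10 weeks old at the start received either PBS or 5-fluorouracil (5-FU), a drug toxic to dividing cells, at 150 mg/kg. The groups PBS-1 d6 and 5FU-1 d6 received 1 administration and were isolated at day 6. PBS-3 d6 and 5FU-3 d6 received 3 administrations at intervals of 21 days and were isolated at day 6 of the last. The groups 5FU-1 d21 and 5FU-3 d21 were isolated at day 21 after 1 or 3 administrations of 5-FU, and no PBS group was isolated at that day. The group old held untreated mice aged 2 years. For mice isolated 5 days after 5-FU, the sorting gate was widened to c-Kit-dim cells and the Mac-1 antibody was left out, so treatment and gate cannot be told apart at day 6.

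NF-kB is a family of dimers held in the cytoplasm by inhibitors of the IkB family. Signals from receptors for TNF, interleukin-1 or microbial products activate the IKK kinases, IkB is degraded, and the dimers enter the nucleus. NF-kB then induces its own inhibitors, IkBα (encoded by Nfkbia) and the ubiquitin-editing enzyme A20 (encoded by Tnfaip3), so transcripts of these genes are widely read as reporters of NF-kB activity. In HSCs, tonic and induced signals of this kind are known to shape survival, cycling and myeloid output. Here only transcript levels were measured, and neither nuclear NF-kB nor protein was observed.

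The stretches before the transcription start of the feedback genes and of Nfkb2 are shown because these genes fell at day 6 after 1 administration of 5-FU, and because feedback genes are known to be bound by NF-kB itself. The promoter table from RefSeq (GRCm38.p6) held windows for 7 of the 10 genes, and Nfkb1, Relb and Tlr4 had none. The 250 bases before each start were searched on both strands for the kappaB consensus, a motif of 10 bases, and overlapping matches were merged. Matches are in capitals. The Nfkbia stretch is chr12:55492648-55492897 on the minus strand, with no annotated exon in it, and its match spans bases 29 to 20 before the start. The Tnfaip3 stretch is chr10:19015411-19015547 on the minus strand, 137 bases that lie between the RefSeq start and an annotated exon farther upstream, and its matches begin 125 and 12 bases before the start.
Nfkbia: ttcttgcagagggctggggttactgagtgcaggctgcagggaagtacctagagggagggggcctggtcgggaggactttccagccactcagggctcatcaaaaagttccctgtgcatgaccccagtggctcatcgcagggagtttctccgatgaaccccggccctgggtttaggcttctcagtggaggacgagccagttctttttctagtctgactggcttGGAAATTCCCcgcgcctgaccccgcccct
Tnfaip3: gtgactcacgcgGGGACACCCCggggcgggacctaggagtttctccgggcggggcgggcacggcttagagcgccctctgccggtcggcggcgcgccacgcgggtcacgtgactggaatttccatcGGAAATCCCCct
Nfkb2 first site: GGGAATTCCCC
Nfkb2 second site: GGGGCTTTCC

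The Nfkb2 sites lie on the plus strand at chr19:46304698-46304708 and chr19:46304726-46304735, inside an exon of a longer annotated transcript. Of all 32851 windows of this length in the table, 3.9% held a match. Counting the first start of each gene, 4 of the 7 genes with a window held one (Nfkbia, Tnfaip3, Nfkb2 and Rel), and Rela, Il1r1 and Tnfrsf1b did not, although a second start of Il1r1 did. A match is a run of letters and not a measured binding site.

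In the GENCODE vM21 annotation of GRCm38, the inhibitor genes lie at chr12:55489410-55492647 (Nfkbia, minus strand) and chr10:19000910-19015657 (Tnfaip3, minus strand). The subunit genes lie at chr3:135584655-135691547 (Nfkb1, minus), chr11:23736847-23770970 (Rel, minus), chr19:5637483-5648130 (Rela, plus), chr7:19606217-19629438 (Relb, minus) and chr19:46304320-46312385 (Nfkb2, plus). The receptor genes lie at chr1:40225080-40317257 (Il1r1, plus), chr4:66827584-66930284 (Tlr4, plus) and chr4:145213463-145246870 (Tnfrsf1b, minus). None of the 10 genes shares exonic bases with a gene on its own strand. Nfkb2 shares 18.1% of its exonic bases with Psd and AC114539.1 on the opposite strand. The library kit does not mark strand, so reads from Nfkb2 and these neighbours cannot be told apart where they overlap. Levels are given as CPM, the read count scaled to the size of its library, with library sizes corrected by the trimmed mean of M values (TMM). The level of Psd lay between 3.57 and 9.03 CPM, against 39.3 to 79.4 CPM for Nfkb2.

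Total counts ranged from 22184885 to 38649033 per library. All 10 genes passed the filter on low counts in every comparison, and their raw counts lay between 167 for Il1r1 and 8650 for Rela, far above the floor of 3 counts. All 10 genes of an HSC marker list, Kit, Slamf1 and Procr among them, were detected in every group. The summed level of this list was 3908 to 4314 CPM in PBS-1 d6 and 3148 to 3296 CPM in 5FU-1 d6, and 3762 to 4105 CPM in PBS-3 d6 and 2758 to 2841 CPM in 5FU-3 d6. In 5FU-1 d6, 3 of its 10 genes were higher and 2 lower, where 11.5% of all genes tested were higher and 10.6% lower. Kit, which the widened gate touches, was at 1075 CPM ± 86.2 (SD, n = 3) in PBS-1 d6 and 597 CPM ± 22.02 in 5FU-1 d6. Markers of other cell types moved with 5-FU as well. The 12 neutrophil and granulocyte markers summed to 130 to 200 CPM in PBS-1 d6 and 70.6 to 78.2 CPM in 5FU-1 d6, and to 166 to 215 CPM in PBS-3 d6 and 72.5 to 101 CPM in 5FU-3 d6, with 6 of 10 tested and 3 of 9 tested lower. Of all genes tested, 10.6% were lower in 5FU-1 d6 and 8.3% in 5FU-3 d6. The receptor gene Csf3r had the most reads of this list, at 2571, 2827 and 1891 in PBS-1 d6 and 1221, 1430 and 1256 in 5FU-1 d6. Ly6g was at 0 in both 5-FU groups of day 6, but also in 5FU-3 d21 and in old. Ctsg was at 0 in 5FU-1 d6, in PBS-1 d6 and in old. The 8 megakaryocyte markers summed to 174 to 212 CPM in PBS-1 d6 and 111 to 119 CPM in 5FU-1 d6, and to 186 to 194 CPM in PBS-3 d6 and 153 to 168 CPM in 5FU-3 d6. Genes within this sum moved in opposite directions. Itga2b had 2078, 1950 and 2000 reads in PBS-1 d6 and 527, 501 and 639 in 5FU-1 d6. Vwf had 1568, 1400 and 1503 reads in PBS-1 d6 and 1706, 1975 and 1716 in 5FU-1 d6. In contrast, the 10 monocyte and macrophage markers summed to 69.9 to 79.6 CPM in PBS-1 d6 and 68.7 to 71.7 CPM in 5FU-1 d6, and to 65.4 to 77.3 CPM in PBS-3 d6 and 58.8 to 82.3 CPM in 5FU-3 d6. This near-constant sum also held opposite changes. Itgam had 312, 467 and 213 reads in PBS-1 d6 and 119, 178 and 187 in 5FU-1 d6. Cd68 had 122, 130 and 122 reads in PBS-1 d6 and 218, 218 and 196 in 5FU-1 d6. The 8 erythroid markers, 7 of them in the table, summed to 33.96 to 91.7 CPM over the 7 groups, the 7 B cell markers to 29.7 to 58.8 CPM, and the 8 endothelial and stromal markers to 165 to 307 CPM. The 8 T and NK cell markers summed to 16.1 to 18.3 CPM in PBS-1 d6 and 8.22 to 9.87 CPM in 5FU-1 d6, with Cd8a, Ncr1 and Gzma at 0 in every group. Of this list Nkg7 had the most reads, at 391, 384 and 390 in PBS-1 d6 and 202, 192 and 220 in 5FU-1 d6. Cd3e was at 0 in both groups. The part of these shifts in the results below was not tested. In libraries made from pools of cells, fewer cells of a type and less RNA per cell cannot be told apart.

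To compare genes with each other, CPM was divided by the length of the longest annotated transcript (CPM per kb). Rela, the main transactivating subunit, was the most abundant of the 10 genes at 66.3 CPM per kb ± 8.27 (SD over 21 libraries). Nfkbia followed at 19.4 ± 3.28, Nfkb2 at 13.9 ± 2.79, Tnfrsf1b at 12.05 ± 1.16 and Nfkb1 at 11.02 ± 0.947 CPM per kb. Relb stood at 7.03 ± 1.51, Tnfaip3 at 5.15 ± 1.48, Tlr4 at 3.36 ± 0.754, Il1r1 at 2.70 ± 1.04 and Rel at 1.78 ± 0.370 CPM per kb. The ranges of Nfkb1, Nfkb2 and Tnfrsf1b overlapped, whereas the lowest Rela library (55.7 CPM per kb) was above the highest library of every other member. Among the 5 subunits, Rela supplied a mean of 66.2% of the summed CPM per kb over the 21 libraries, with a range of 57.9% to 71.0%. Nfkb2 supplied 13.9%, Nfkb1 11.1%, Relb 7.002% and Rel 1.80%. Thus, the order of Rela first and Rel last held in the group means of all 7 groups. The share of Nfkb2, the p100 precursor of the non-canonical subunit p52, was 17.2% ± 2.89 in PBS-1 d6 and 12.5% ± 0.558 in 5FU-1 d6 (SD, n = 3), and the share of Nfkb1, the p105 precursor of p50, was 10.1% ± 0.857 and 12.3% ± 0.546. In PBS-3 d6 the Nfkb2 share was 13.1% and in 5FU-3 d6 12.2%. It was 12.6% in 5FU-1 d21, 15.2% in 5FU-3 d21 and 14.6% in old. PBS-1 d6 thus had the highest Nfkb2 share of the 7 group means, and 5FU-1 d6 lay near PBS-3 d6. In 5FU-1 d6 the shares of Nfkb1 and Nfkb2 lay within 1 SD of each other, which was not so in PBS-1 d6.

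**Figure D1:**
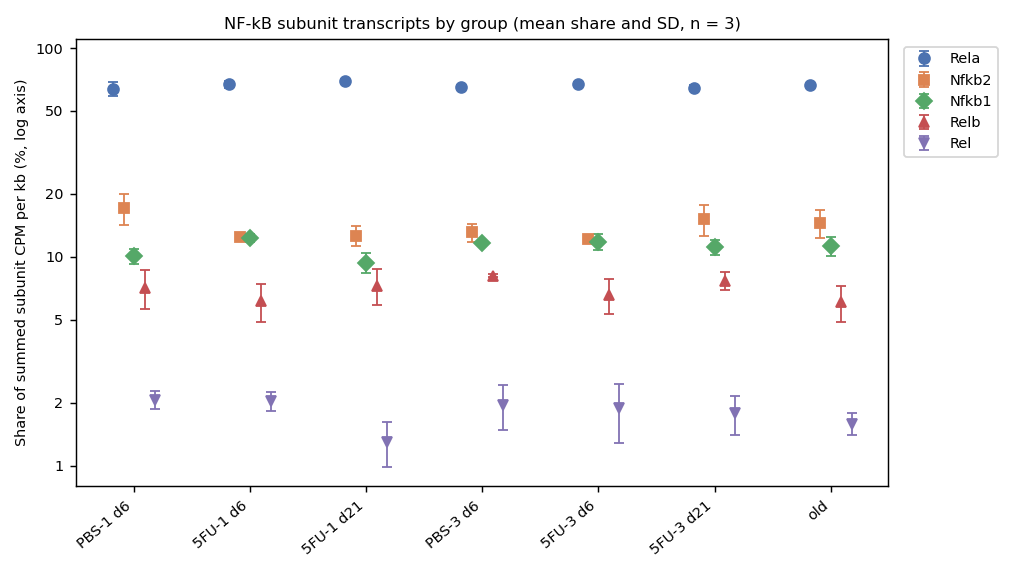
Share of the summed CPM per kb of the 5 NF-kB subunits (vertical axis, percent, log scale) that each subunit supplied in the 7 groups (horizontal axis). Points are means and bars SD of 3 libraries; Rela lies between 63.6% and 69.4% in every group mean and Rel between 1.30% and 2.06%.

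**Figure D2:**
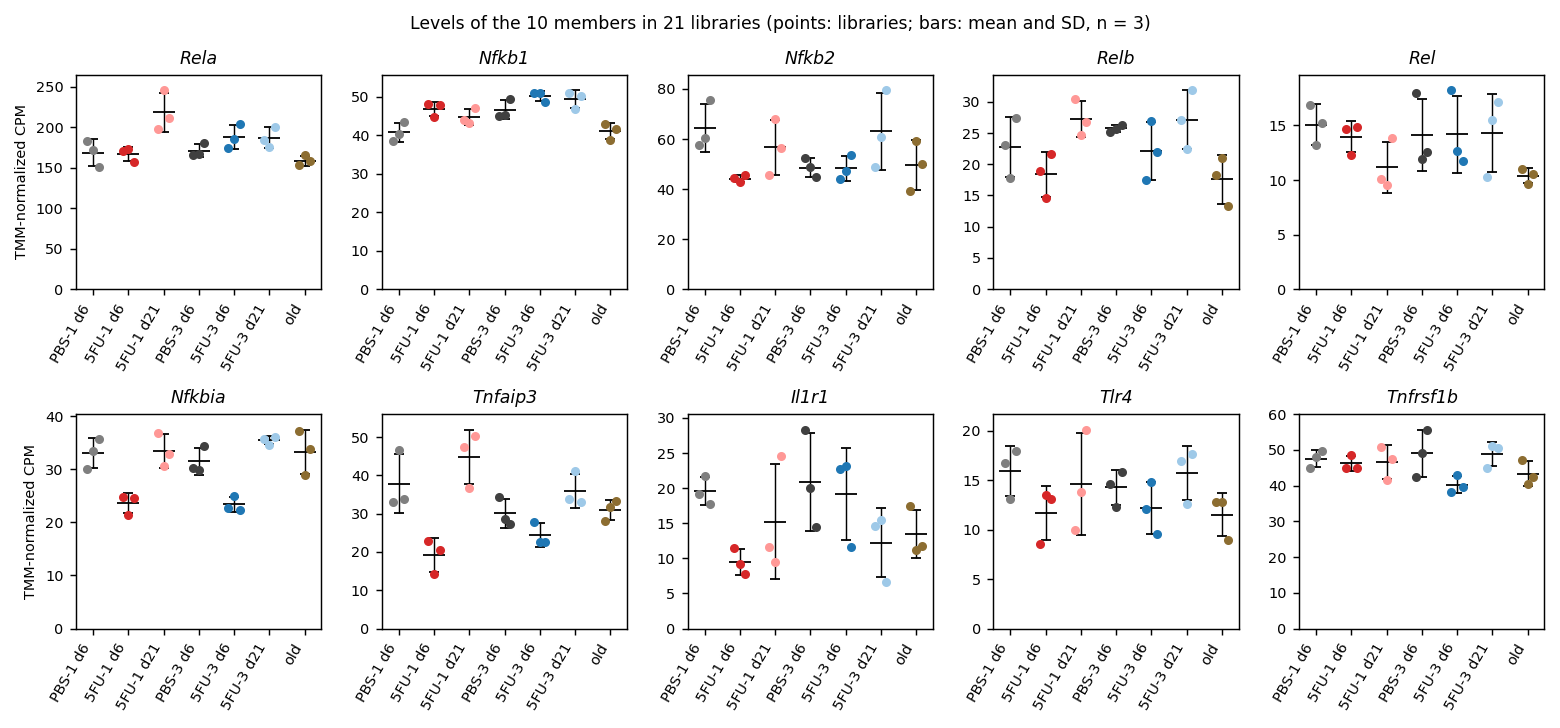
TMM-normalized CPM (vertical axes, from 0) of the 10 genes in the 21 libraries, by group (horizontal axes); points are libraries and bars the mean and SD of 3. Nfkbia is lower in all 6 libraries of the day-6 5-FU groups than in the other 15 libraries.

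Next, the effect of a single administration of 5-FU at day 6 was examined. In 5FU-1 d6 the feedback inhibitors Nfkbia and Tnfaip3, the subunit Nfkb2 and the interleukin-1 receptor Il1r1 were lower than in PBS-1 d6, and none of the 10 genes was higher. The background was high, since 10.6% of the 12759 genes tested fell and 11.5% rose, and 4 of the 10 genes fell. The median log2 fold change of the 10 genes was -0.38, against -0.00056 for all genes tested. The 10 genes were chosen with earlier results of these data known. Their counts and medians beside the background, here and below, are therefore descriptions and not tests. DESeq2 called 4 of the 10 genes as well, against 28.9% of all genes tested in either direction.

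Tnfaip3 levels were 33.0, 46.7 and 33.9 CPM in PBS-1 d6 and 23.0, 14.1 and 20.5 CPM in 5FU-1 d6. No 5-FU library reached the lowest PBS library, and the level fell by 0.99 ± 0.205 on the log2 scale (SE, adjusted p = 0.0164). With the replicate number as a block in the fit, the adjusted p for Tnfaip3 was 0.0502. Il1r1, the signaling receptor for interleukin-1, was at 19.2, 21.7 and 17.8 CPM in PBS-1 d6 and 11.4, 9.18 and 7.77 CPM in 5FU-1 d6. The groups were again separate, and the level fell by 1.06 ± 0.158 on the log2 scale (adjusted p = 0.00545). With all 21 libraries in 1 fit, the adjusted p for Il1r1 was 0.0581. Nfkbia was at 30.1, 33.5 and 35.8 CPM in PBS-1 d6 and 24.8, 21.5 and 24.6 CPM in 5FU-1 d6, a log2 fold change of -0.50 ± 0.0996 (adjusted p = 0.0145). Nfkb2 was at 57.5, 60.2 and 75.5 CPM in PBS-1 d6 and 44.3, 42.8 and 45.5 CPM in 5FU-1 d6, a log2 fold change of -0.55 ± 0.113 (adjusted p = 0.0155). Both sets of 3 libraries were separate for these genes too. The calls of Nfkbia and Nfkb2 were lost without 5FU-1 d6 replicate 2, where the adjusted p became 0.0502 and 0.0552. Calls over all genes went from 2827 to 1563 without this library. With a library left out, log2 fold changes lay between -0.56 and -0.43 for Nfkbia and between -0.63 and -0.42 for Nfkb2.

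The other subunits showed no called difference after 1 administration. Rela was at 151 to 183 CPM in PBS-1 d6 and 158 to 174 CPM in 5FU-1 d6, and its log2 fold change was -0.02 ± 0.0872 (adjusted p = 0.875). Nfkb1 was at 38.5, 40.4 and 43.5 CPM in PBS-1 d6 and at 48.2, 44.8 and 47.8 CPM in 5FU-1 d6. Although every 5-FU library was above every PBS library, its log2 fold change of 0.19 ± 0.0780 did not pass the test (adjusted p = 0.117). Log2 fold changes were -0.32 ± 0.196 for Relb, the partner of p52, and -0.12 ± 0.130 for Rel, the lymphoid-enriched subunit c-Rel. Tlr4, the receptor for lipopolysaccharide, gave -0.45 ± 0.202, and the TNF receptor gene Tnfrsf1b gave -0.05 ± 0.0757. The adjusted p-values of these 4 genes lay between 0.148 for Tlr4 and 0.685 for Tnfrsf1b.

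After 3 administrations, Nfkbia was again lower at day 6, in libraries that the previous comparison did not use. It was at 30.3, 29.9 and 34.5 CPM in PBS-3 d6 and 22.8, 25.1 and 22.4 CPM in 5FU-3 d6, so the groups did not overlap, and the log2 fold change was -0.45 ± 0.0939 (adjusted p = 0.0198). Nfkbia was the single call, 1 of 10, and no gene of the 10 was higher, whereas 8.3% of the 12729 genes tested fell and 9.84% rose. DESeq2 also called 1, against 26.4% of all genes. The call was lost without PBS-3 d6 replicate 3 (adjusted p = 0.0564 for Nfkbia), 5FU-3 d6 replicate 1 (0.0617) or 5FU-3 d6 replicate 3 (0.0667). The median log2 fold change was -0.20 over the 10 genes and -0.01 over all genes tested.

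The other 3 genes that fell after 1 administration gave smaller estimates after 3. Tnfaip3 was at 34.5, 28.5 and 27.4 CPM in PBS-3 d6 and 27.9, 22.5 and 22.7 CPM in 5FU-3 d6, where the highest 5-FU library lay above the lowest PBS library (log2 fold change -0.33 ± 0.130, adjusted p = 0.130). Nfkb2 was at 52.3, 48.7 and 44.7 CPM against 43.9, 47.1 and 53.8 CPM, and the groups covered the same range (log2 fold change -0.03 ± 0.106, adjusted p = 0.865). Il1r1 spread widely in both groups, with 28.3, 20.0 and 14.4 CPM in PBS-3 d6 and 22.7, 23.1 and 11.6 CPM in 5FU-3 d6 (log2 fold change -0.15 ± 0.322, adjusted p = 0.780). Tnfrsf1b was at 42.4, 49.2 and 55.6 CPM in PBS-3 d6 and 38.3, 43.0 and 39.5 CPM in 5FU-3 d6, with a log2 fold change of -0.31 ± 0.115 that missed the threshold (adjusted p = 0.113). For Rela, Nfkb1, Rel, Relb and Tlr4, adjusted p-values lay between 0.316 and 0.968.

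Whether the effect of 5-FU differed between 3 and 1 administrations was tested as an interaction over the 12 day-6 libraries. Mice given 3 administrations were also older at isolation, and age and number of administrations cannot be told apart. Of the 10 genes, edgeR called 0, with 3 at an unadjusted p under 0.05, and 0.65% of the 13227 genes tested were called in either direction. These 3 genes were Nfkb2 (difference of log2 fold changes 0.53 ± 0.160, adjusted p = 0.141), Tnfaip3 (0.68 ± 0.266, adjusted p = 0.261) and Il1r1 (0.92 ± 0.401, adjusted p = 0.316). DESeq2 called 1, Nfkb2 (adjusted p = 0.0458), and 5.41% of all genes. For Nfkbia the difference was 0.06 ± 0.134 (adjusted p = 0.884). The control groups themselves entered this difference for Nfkb2, since PBS-3 d6 was lower than PBS-1 d6 with no overlap (log2 fold change -0.40 ± 0.123, adjusted p = 0.258).

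**Figure D3:**
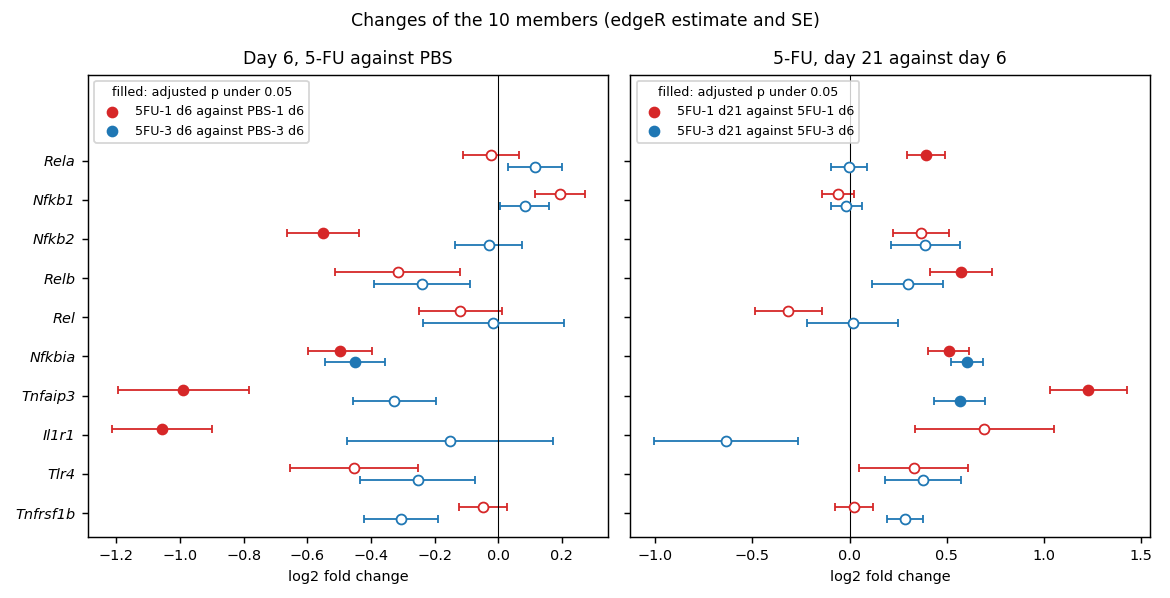
Log2 fold changes (horizontal axes) of the 10 genes (vertical axis) in 5-FU against PBS at day 6 (left) and in day 21 against day 6 of 5-FU (right), after 1 (red) or 3 (blue) administrations. Points are edgeR estimates, bars SE, and filled points have an adjusted p under 0.05; Nfkbia is filled in all 4 comparisons, at -0.50, -0.45, 0.51 and 0.60.

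Both feedback genes were higher at day 21 than at day 6 of 5-FU. These comparisons use the 5-FU libraries of day 6 again, so a low level at day 6 enters both contrasts. After 1 administration, 4 of the 10 genes rose (Tnfaip3, Nfkbia, Relb and Rela) and 0 fell, with 12.3% of the 12589 genes tested rising and 13.7% falling. DESeq2 called 4 of the 10 and 33.1% of all genes. Tnfaip3 was at 47.4, 36.7 and 50.3 CPM in 5FU-1 d21, each above every 5FU-1 d6 library (14.1 to 23.0 CPM), and its log2 fold change was 1.23 ± 0.197 (adjusted p = 0.00601). Nfkbia was at 36.8, 30.6 and 32.9 CPM in 5FU-1 d21 (log2 fold change 0.51 ± 0.105, adjusted p = 0.0142). The call of Tnfaip3 was made in every alternative run, and that of Nfkbia was lost without 5FU-1 d6 replicate 2 (adjusted p = 0.0546).

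Rela and Relb, the transactivating subunits of the canonical and non-canonical arms, rose over the same interval. Rela was at 170, 174 and 158 CPM in 5FU-1 d6 and 198, 246 and 211 CPM in 5FU-1 d21, with no overlap (log2 fold change 0.39 ± 0.0998, adjusted p = 0.0275). Relb was at 19.0, 14.6 and 21.7 CPM in 5FU-1 d6 and 30.4, 24.7 and 26.7 CPM in 5FU-1 d21, also without overlap (log2 fold change 0.57 ± 0.158, adjusted p = 0.0355). Neither call was stable to the loss of a library. For Rela the adjusted p was 0.0727, 0.0605 and 0.0951 without 5FU-1 d6 replicate 1, 2 or 3. For Relb it was 0.0859 and 0.0806 without 5FU-1 d6 replicate 1 or 2, 0.0879 and 0.0686 without 5FU-1 d21 replicate 1 or 3, and 0.0542 without a normalization factor.

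After 3 administrations, 2 of the 10 genes rose from day 6 to day 21 (Nfkbia and Tnfaip3) and 0 fell, while 8.68% of the 12553 genes tested rose and 10.8% fell. DESeq2 called 3, adding Tnfrsf1b, and 27.4% of all genes. Nfkbia was at 35.7, 34.6 and 36.1 CPM in 5FU-3 d21, above every 5FU-3 d6 library, and its log2 fold change of 0.60 ± 0.0840 passed the test in every alternative (adjusted p = 0.00428). Tnfaip3 was at 33.9, 41.0 and 33.0 CPM in 5FU-3 d21, again above the 5FU-3 d6 libraries (log2 fold change 0.57 ± 0.132, adjusted p = 0.0244). Its adjusted p was 0.0805 without 5FU-3 d6 replicate 2, 0.0860 without 5FU-3 d6 replicate 3 and 0.0640 without 5FU-3 d21 replicate 2. Rela, in contrast, had a log2 fold change of -0.00438 ± 0.0923 here, at 175 to 205 CPM in 5FU-3 d6 and 175 to 201 CPM in 5FU-3 d21. The summed neutrophil markers were 142 to 225 CPM in 5FU-1 d21 and 162 to 197 CPM in 5FU-3 d21, and the monocyte markers 94.0 to 101 CPM and 89.2 to 106 CPM, above their day-6 5-FU levels. Over the same interval the summed HSC markers were also higher without overlap, at 4059 to 4494 CPM in 5FU-1 d21 and 3698 to 3922 CPM in 5FU-3 d21. So were the megakaryocyte markers (137 to 159.8 and 186 to 200.01 CPM) and the T and NK cell markers (15.5 to 19.5 and 18.3 to 20.4 CPM). Nkg7 again had the most reads of the T and NK cell list. The endothelial and stromal markers were higher without overlap after 1 administration (237 to 307 CPM in 5FU-1 d21) and overlapped after 3. The part of these shifts in the results for day 21 was not tested. The sorting gate also differed between the days, and gate and day cannot be told apart. In addition, the column names of the 5FU-1 d6 libraries carry a suffix of unstated meaning that those of 5FU-1 d21 lack. After 1 administration this suffix and day cannot be told apart either.

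At day 21 no difference from the PBS groups was called by edgeR for any of the 10 genes. Against PBS-1 d6, 0 of 10 were called in 5FU-1 d21 and 2 had an unadjusted p under 0.05 (Rel and Rela), with 0.221% of the 12647 genes tested called. DESeq2 called 1, Rela (adjusted p = 0.0376), and 5.73% of all genes, and Rela was also called in the fit of all 21 libraries (adjusted p = 0.0395). Rela was higher in each 5FU-1 d21 library than in the PBS-1 d6 libraries (151 to 183 CPM), and its log2 fold change was 0.37 ± 0.112 (adjusted p = 0.221 by edgeR). Against PBS-3 d6, 0 of 10 were called in 5FU-3 d21, also at an unadjusted p under 0.05 and by DESeq2, with 0.0475% of the 12632 genes tested called by edgeR and 4.69% by DESeq2. Between 5FU-3 d21 and 5FU-1 d21, edgeR and DESeq2 called 0 of 10, 0 had an unadjusted p under 0.05, and 0.00802% of the 12474 genes tested were called by edgeR and 1.29% by DESeq2. Day and treatment cannot be told apart in the comparisons with PBS, since the PBS mice were isolated at day 6. The column names of PBS-1 d6 also carry the suffix that those of 5FU-1 d21 lack.

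**Figure D4:**
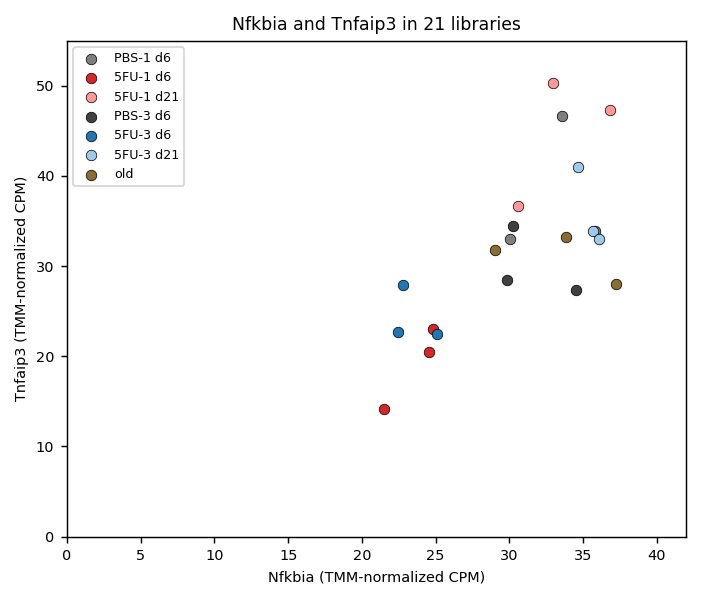
Tnfaip3 (vertical axis) against Nfkbia (horizontal axis), both in TMM-normalized CPM, in the 21 libraries, colored by group. The 6 day-6 5-FU libraries lie at the lower left, at 21.5 to 25.1 CPM for Nfkbia and 14.1 to 27.9 CPM for Tnfaip3.

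The feedback genes were therefore followed across all 7 groups. In the test of any difference among the 7 groups, 4 of the 10 genes were called (Nfkbia, adjusted p = 0.000328; Tnfaip3, 0.000542; Rela, 0.00658; Nfkb1, 0.00917), against 37.6% of the 13571 genes tested. DESeq2 called 6, adding Nfkb2 and Relb, against 49.4% of all genes. Without a normalization factor the adjusted p for Nfkb1 was 0.107. Mean Nfkbia levels were 23.4 CPM ± 1.42 (SD, n = 3) in 5FU-3 d6 and 23.6 ± 1.85 in 5FU-1 d6, which did not differ beyond their spread. The other 5 groups followed at 31.5 ± 2.57 in PBS-3 d6, 33.1 ± 2.88 in PBS-1 d6, 33.4 ± 4.13 in old, 33.4 ± 3.15 in 5FU-1 d21 and 35.5 ± 0.745 CPM in 5FU-3 d21, and neighbours among these 5 did not differ beyond their spread.

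Tnfaip3 had the same 2 groups at the bottom, at 19.2 CPM ± 4.56 in 5FU-1 d6 and 24.4 ± 3.09 in 5FU-3 d6. The order then ran through PBS-3 d6 (30.1 ± 3.81), old (30.99 ± 2.65), 5FU-3 d21 (36.0 ± 4.41), PBS-1 d6 (37.9 ± 7.65) and 5FU-1 d21 (44.8 CPM ± 7.15), with neighbours within 1 SD of each other from PBS-3 d6 to old and from 5FU-3 d21 upward. Over the 21 libraries, Pearson's r between the log2 levels of Nfkbia and Tnfaip3 was 0.75, the highest among the 10 genes, and the points share groups and libraries. For Nfkb1 the lowest means were 40.8 CPM ± 2.53 in PBS-1 d6 and 41.1 ± 2.07 in old, and the highest were 49.4 ± 2.27 in 5FU-3 d21 and 50.2 CPM ± 1.32 in 5FU-3 d6.

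Neither repeated PBS nor age gave a called difference. Mice given 3 administrations from the same starting age were older at isolation than mice given 1. Age at isolation and number of administrations cannot be told apart. Between PBS-3 d6 and PBS-1 d6, edgeR and DESeq2 called 0 of 10, Nfkb1 and Nfkb2 (2 genes) had an unadjusted p under 0.05, and 0.0156% of the 12806 genes tested were called by edgeR and 4.27% by DESeq2. The column names of the PBS-1 d6 and 5FU-1 d6 libraries carry a suffix that the others lack, of unstated meaning. Among the day-6 groups it cannot be told apart from the number of administrations. Where 5FU-1 d21 is compared with PBS-1 d6 or 5FU-1 d6, it cannot be told apart from day. For old against PBS-3 d6, 0 of 10 genes were called by edgeR or DESeq2, 3 had an unadjusted p under 0.05, and 0.996% of the 12847 genes tested were called by edgeR and 4.43% by DESeq2. Those 3 were Relb, Rel and Il1r1. Relb was at 25.2, 25.7 and 26.3 CPM in PBS-3 d6 and 18.3, 21.1 and 13.4 CPM in old, with no overlap, and its log2 fold change of -0.56 ± 0.164 had an adjusted p of 0.220. Rel was at 17.9, 11.9 and 12.6 CPM in PBS-3 d6 and 9.63 to 11.004 CPM in old, so that all old libraries were below all PBS-3 d6 libraries (log2 fold change -0.46 ± 0.179, adjusted p = 0.387). The old mice were untreated, and age and the PBS administrations cannot be told apart here.

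The rest of the pathway was followed with 8 lists holding 128 genes. After 1 administration, 108 of these genes could be tested at day 6, of which 7 rose, 17 fell and 84 did not pass (median log2 fold change -0.15, against -0.00056 for all genes). After 3 administrations, 107 could be tested, of which 5 rose, 16 fell and 86 did not pass (median -0.10, against -0.01). The shares of the lists that rose or fell can be read against the background given above for each comparison. The lists too were chosen with earlier results of these data known, so these shares and medians are descriptions.

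Among ligands and receptors of the TNF family, 2 of 8 tested genes rose after 1 administration and 0 fell, with a list median of 0.53. Tnf, the ligand of Tnfrsf1b, had 11, 19 and 18 reads in PBS-1 d6 and 83, 143 and 218 reads in 5FU-1 d6 (log2 fold change 3.17 ± 0.454, adjusted p = 0.00473). Every 5-FU library was above every PBS library, at 3.49 to 8.34 CPM against 0.408 to 0.770 CPM, although with all 21 libraries in 1 fit the adjusted p for Tnf was 0.138. In the libraries of 3 administrations, Tnf had 16, 0 and 10 reads in PBS-3 d6 and 4, 63 and 147 reads in 5FU-3 d6. These groups overlapped, and no difference was called (adjusted p = 0.224 for Tnf). In the interaction, the difference of the Tnf log2 fold changes was -0.31 ± 1.58 (adjusted p = 0.954). A difference between 3 and 1 administrations was therefore not shown for Tnf. Tnfrsf13c, the receptor for the B cell survival factor BAFF, rose from 13.2 to 21.8 CPM in PBS-1 d6 to 32.0 to 38.2 CPM in 5FU-1 d6 (log2 fold change 1.13 ± 0.191, adjusted p = 0.00831). Ltb, encoding lymphotoxin β, was the only 1 of 8 tested genes of the list called after 3 administrations (log2 fold change -0.49).

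Of the other genes of the interleukin-1 family, 3 of 6 tested fell after 1 administration and 2 of 6 after 3, and none rose. Il18r1, a chain of the interleukin-18 receptor, was at 4.14 to 6.21 CPM in PBS-1 d6 and 1.15 to 1.41 CPM in 5FU-1 d6, a log2 fold change of -2.02 ± 0.293 (adjusted p = 0.00490). The ligand Il18 had log2 fold changes of -0.45 and -0.94 after 1 and 3 administrations, and the inhibitory family member Sigirr had -0.42 and -0.43. Of the Toll-like receptors and their co-receptors, 1 of 11 tested fell after 1 administration and 2 of 10 after 3, and none rose, although the median of the list was above 0 after 3 (0.56). Tlr2, the receptor for bacterial lipopeptides, was the shared one, at 9.29 to 13.3 CPM in PBS-1 d6 and 7.08 to 8.63 CPM in 5FU-1 d6 (log2 fold change -0.60), and at 14.2 to 18.1 CPM in PBS-3 d6 and 8.18 to 10.5 CPM in 5FU-3 d6 (-0.78). The call of Tlr2 after 1 administration was lost without any 1 of 5 of the 6 libraries, the exception being PBS-1 d6 replicate 3, while that after 3 was made in every alternative. Lbp, a lipopolysaccharide-binding protein, fell after 3 administrations (-0.69 ± 0.113, adjusted p = 0.00903).

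Cytosolic sensors and the inflammasome had 1 gene that rose and 2 that fell in each comparison, of 19 and 18 tested. The RNA sensor Ddx58 fell in both (-0.30 and -0.42). Mavs, the adaptor of the RNA sensors, fell after 1 administration (-0.40 ± 0.0745, adjusted p = 0.0116), and Sting1, the adaptor of DNA sensing, rose (0.35 ± 0.0660, adjusted p = 0.0117). After 3 administrations Cgas, which senses cytosolic DNA, rose (0.84 ± 0.115, adjusted p = 0.00547), and the RNA helicase Dhx58 fell (-0.36).

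Among the 25 adaptors and kinases, 1 rose and 3 fell after 1 administration, and 3 rose and 3 fell after 3. Tab2, a partner of the kinase TAK1, rose in both comparisons, from 42.1, 45.1 and 44.2 CPM in PBS-1 d6 to 67.9, 82.9 and 79.3 CPM in 5FU-1 d6 and from 43.9, 48.8 and 41.5 CPM in PBS-3 d6 to 73.8, 82.0 and 101 CPM in 5FU-3 d6. Its log2 fold changes were 0.80 ± 0.0931 (adjusted p = 0.00269) and 0.92 ± 0.134 (adjusted p = 0.00661), called in every alternative. The ubiquitin ligase Traf6 (-0.34) and the inhibitory kinase homolog Irak3 (-0.29) fell after 1 administration. Irak2, a kinase of interleukin-1 and Toll-like receptor signaling, fell after 3, from 25.5, 38.4 and 32.4 CPM in PBS-3 d6 to 10.7, 17.4 and 11.9 CPM in 5FU-3 d6 (-1.29 ± 0.220, adjusted p = 0.0101), and so did the adaptor Tirap (-0.58). Of the 6 genes of the IKK complex and the non-canonical kinases, 2 fell after 1 administration, the scaffold Ikbkg (-0.37) and the kinase Map3k14 (-0.43). After 3 administrations edgeR called 0 of these 6, with 1 at an unadjusted p under 0.05 and 1 called by DESeq2.

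Of 13 further genes listed as IkB family members or inhibitors of the pathway, 1 rose and 1 fell after 1 administration, and 0 rose and 1 fell after 3. The atypical IkB protein gene Bcl3 rose (0.60) and the A20-binding protein gene Tnip1 fell (-0.37) after 1, and Tnip3 fell (-0.34) after 3. For NF-kB target genes, 2 of 20 tested rose and 5 fell after 1 administration, and 1 of 21 rose and 5 fell after 3. Bcl2l1, encoding the survival protein BCL-XL, rose in both comparisons (0.46 ± 0.0849, adjusted p = 0.0110, and 0.63 ± 0.0911, adjusted p = 0.00620). The early-response gene Ier3 fell in both (-0.86 and -0.62). The chemokine gene Ccl3 had 15, 18 and 22 reads in PBS-1 d6 and 1, 1 and 3 reads in 5FU-1 d6, and 23, 80 and 56 reads in PBS-3 d6 and 1, 2 and 2 reads in 5FU-3 d6, at or under the floor of 3 counts in all 5-FU libraries of day 6 (adjusted p = 0.00956 after 3). Its neighbour Ccl4 had 153, 180 and 167 reads in PBS-3 d6 and 32, 50 and 22 reads in 5FU-3 d6 (log2 fold change -2.36 ± 0.413, adjusted p = 0.0112). Reads of the neutrophil granule gene Lcn2, also on this list and chosen after its values were seen, were 94, 127 and 15 in PBS-1 d6 and 0, 0 and 7 in 5FU-1 d6, beside the fall of the neutrophil markers given above.

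Slfn2, a member of the Schlafen family known for quiescence in T cells, was the 1 of 109 listed genes tested that edgeR called in the interaction of 5-FU with 3 against 1 administrations. DESeq2 called 11 of the 109, Slfn2 among them, against 5.41% of all genes. It rose from 17.8, 15.6 and 16.9 CPM in PBS-1 d6 to 29.8, 34.1 and 30.7 CPM in 5FU-1 d6 (0.91 ± 0.0946, adjusted p = 0.00191). In PBS-3 d6 it was at 17.1, 14.3 and 20.5 CPM and in 5FU-3 d6 at 13.01, 14.99 and 10.7 CPM (-0.45 ± 0.175, adjusted p = 0.124). The difference of the log2 fold changes was -1.34 ± 0.205 (adjusted p = 0.0170).

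The calls given for Tnfrsf13c, Il18r1, Mavs, Sting1, Tab2, Slfn2 and Bcl2l1 after 1 administration, and for Lbp, Tlr2, Cgas, Tab2, Irak2, Bcl2l1 and Ccl4 after 3, held in all 13 alternatives of their comparison. Sigirr, Il18, Ddx58, Traf6, Irak3, Ikbkg, Map3k14, Tnip1, Bcl3 and Ier3 after 1 administration, and Ltb, Sigirr, Il18, Ddx58, Dhx58, Tirap and Tnip3 after 3, each lost the call in 4 to 8 of the 13 alternatives, including the removal of at least 4 of the 6 libraries in turn.

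**Figure D5:**
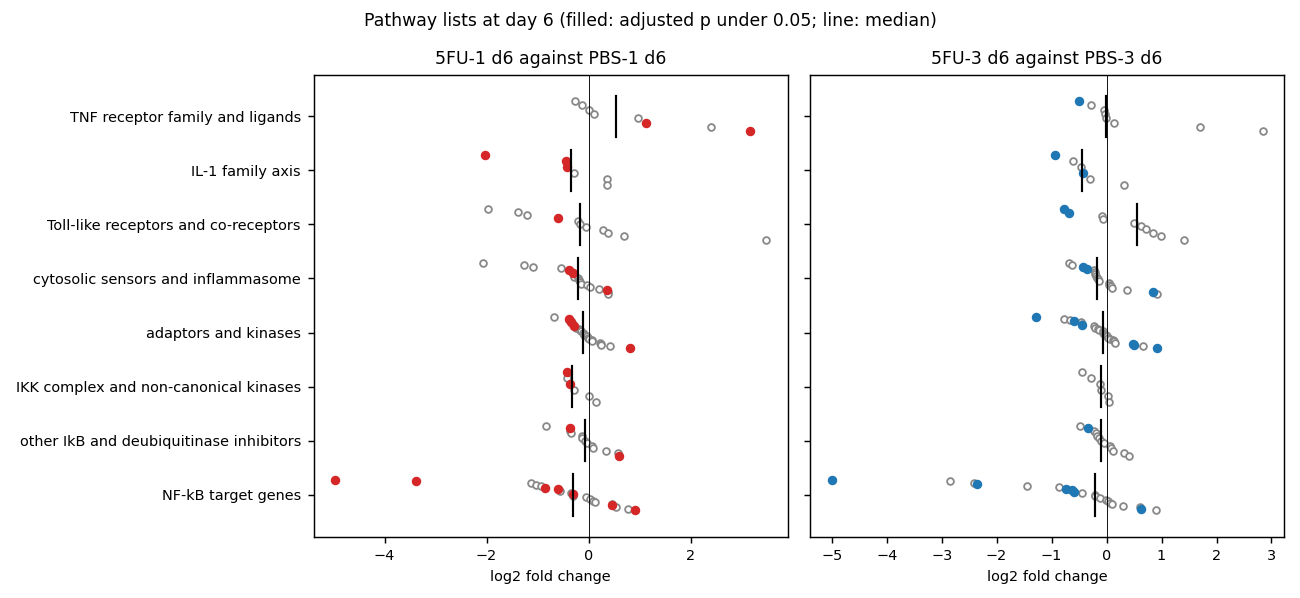
Log2 fold changes at day 6 (horizontal axes) of the genes tested in 8 pathway lists (vertical axis) after 1 (left) and 3 (right) administrations of 5-FU; each point is a gene, filled where the adjusted p is under 0.05, and lines are list medians. Lists have few filled genes in either direction; the leftmost filled points, Ccl3 and Lcn2, rest on counts near 0 in a 5-FU group.

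At day 21 against day 6 after 1 administration, 20 of 106 listed genes rose and 6 fell, with a median of 0.17 against -0.01 for all genes. Of all genes tested there, 12.3% rose and 13.7% fell. After 3 administrations, 17 of 105 rose and 6 fell, with a median of 0.14 against 0.00807 for all genes. Of all genes tested in this comparison, 8.68% rose and 10.8% fell. Against PBS-1 d6, edgeR called 0 of 106 listed genes in 5FU-1 d21, with 13 at an unadjusted p under 0.05 and 4 called by DESeq2, which called 5.73% of all genes. Against PBS-3 d6, it called 0 of 105 in 5FU-3 d21, with 18 at an unadjusted p under 0.05 and 7 called by DESeq2, which called 4.69% of all genes. The share of all genes at an unadjusted p under 0.05 was not counted, so the 13 and 18 genes have no background here. Tnf had 21, 70 and 30 reads in 5FU-1 d21 and 8, 0 and 64 reads in 5FU-3 d21.

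Finally, the genes whose log2 levels over the 21 libraries were most like those of the members were listed from 13570 genes. For Nfkbia these were Pik3ip1, Pnrc1 and Pink1, with Pearson's r of 0.953, 0.952 and 0.951. For Tnfaip3 they were Cd1d1 (0.901), Sgms1 (0.874) and Angpt1 (0.873). The closest to Nfkb1 was Usb1 (0.853), to Rela Inpp5d (0.845), to Relb Ell (0.835) and to Nfkb2 Dop1b (0.793). Rel had the lowest such value among the subunits, 0.724 with Man2b1. Among the receptors the closest genes were Maged1 for Tnfrsf1b (0.807), Ap3d1 for Tlr4 (0.761) and Faah for Il1r1 (0.714). All libraries of a group share their condition, and these values are descriptions.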

How the data were processed

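The deposited values were raw counts of reads for each gene symbol, in whole numbers and not normalized. Reads of 75 bases from SMART-Seq v4 and Nextera XT libraries were aligned by the authors with TopHat2 2.0.13 to mm10 with iGenomes annotation, and Cuffdiff and Cufflinks 2.2.1 were used; the program that wrote the counts is not given in the sources used here. The 10 members and the gene lists were chosen with earlier results of these data known. Tests were run in edgeR 4.0.16 (R 4.3.3) by quasi-likelihood, after filterByExpr and TMM, using only the groups compared, with Benjamini-Hochberg adjustment over all genes kept and a threshold of 0.05. Correlations used log2 of CPM plus 0.5. Named are the members, up to 3 genes with the lowest p among those called per pathway list (8 lists) at day 6, the markers of 8 cell type lists, and the 3 genes most correlated with each member; a few others are named because they were singled out afterwards. The alternatives included DESeq2 1.42.0, other factors and filters, the replicate block, 1 fit of all libraries and leaving out each library. In simulated counts for 5FU-1 d6 against PBS-1 d6 (12550 genes), 84.4% of 192 genes changed 4-fold up or down were recovered and 4.14% of calls were false. Smaller changes, such as those of the members, were not simulated, so their recovery is not known. Libraries of 1 group differed by 16.8 to 37.5 times the sampling variance, so none was a copy. Floors cover counting error only.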

Additional observations from a re-analysis of the deposited data

How the results depend on the processing

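The number of the 10 genes called at day 6 after 1 administration was 4, and 2 to 4 when a library was left out; after 3 administrations it was 1, and 0 to 1 when a library was left out. From day 6 to day 21 it was 4 after 1 administration, and 1 to 4 when a library was left out. After 3 administrations it was 2, and 1 to 2 when a library was left out. Calls over all genes fell as well when a library was left out. At day 6 they went from 2827 to between 1563 and 1947 after 1 administration, and from 2310 to between 1231 and 1582 after 3. From day 6 to day 21 they went from 3272 to between 1736 and 2978 after 1, and from 2450 to between 1351 and 1744 after 3. DESeq2 called 1 of the 10 genes in place of 0 in the interaction. In 5FU-1 d21 against PBS-1 d6 it called 1 of the 10 in place of 0, as did the fit of all 21 libraries. Same-numbered libraries had correlations of deviations between -0.0542 and 0.0437 over 13571 genes, so the numbers were not taken as pairs. With the replicate block, 0 of the 10 genes were called in 5FU-3 d6 against PBS-3 d6 (Nfkbia, adjusted p = 0.0575). Over all genes, 1509 of the 12729 tested were called there with this block. In 5FU-1 d6 the adjusted p for Tnfaip3 with the block was 0.0502.

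Reversed signs occurred for differences near 0, and the cause was not tested. After 3 administrations at day 6 these were Nfkb1 without a normalization factor (-0.0170), Rel in the fit of all libraries (0.00547), and, with a library left out, Nfkb2 (-0.114 to 0.0371), Rel (-0.23 to 0.19) and Il1r1 (-0.36 to 0.13). After 1 administration, Rela ranged from -0.0938 to 0.0404 with a library left out. In the interaction, Nfkbia was -0.00613 without a normalization factor and -0.00480 to 0.13 with a library left out. Of 1247 alternative values for single genes, 1084 kept direction and side of the threshold, 129 fell below it, 21 passed it and 13 reversed.

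Without normalization factors the median of all genes moved to -0.11 in 5FU-3 d6 against PBS-3 d6, where 807 of 2269 called genes rose in place of 1253 of 2310, and to 0.12 in 5FU-3 d21 against 5FU-3 d6, where 1701 of 2678 rose in place of 1089 of 2450; in 5FU-1 d6, 1127 of 2750 rose in place of 1470 of 2827. DESeq2 called 715 genes in place of 86 in the interaction, 725 in place of 28 in 5FU-1 d21 against PBS-1 d6, 592 in place of 6 in 5FU-3 d21 against PBS-3 d6, 161 in place of 1 in 5FU-3 d21 against 5FU-1 d21, 547 in place of 2 in PBS-3 d6 against PBS-1 d6, and 569 in place of 128 in old against PBS-3 d6.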
